A study of Mus musculus with 6 samples.

Results

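The nuclear-encoded subunits of the mitochondrial respiratory chain and ATP synthase were followed in mouse ATDC5 cells, a chondrogenic line derived from a teratocarcinoma. Members were set by a rule on gene symbols, as Ndufa, Ndufb, Ndufc, Ndufs or Ndufv with a number, Sdha to Sdhd, and every symbol that begins with Uqcr, with Cox4 to Cox8 or with Atp5. Earlier results of these data were known when they were chosen. This gave 83 of the 16880 genes listed, namely 39 for complex I, 4 for complex II, 8 for complex III, 15 for complex IV and 17 for complex V. All cells were treated with IL-1β, an inflammatory cytokine, at 10 ng/mL. In the IL group (3 libraries) it was given alone, and in the ILN group (3 libraries) it was combined with 10 μM NP-G2-044, a small-molecule inhibitor of the actin-bundling protein fascin, for 24 h according to the methods. The inhibitor carries another number, NP-G2-047, in 1 label field of the ILN samples. The methods speak of chondrocytes and count 3 biological replicates, and nothing in the labels says that the libraries came from separate cultures, so that p-values measure the spread between these libraries only. A vehicle group was not analysed here, and each comparison sets ILN against IL.

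The respiratory chain passes electrons from NADH (complex I) and succinate (complex II) through ubiquinone to complex III, then through cytochrome c to complex IV, which reduces oxygen. Complexes I, III and IV pump protons across the inner membrane, and complex V, the ATP synthase, lets them flow back through a rotating ring to make ATP. Most subunits are encoded in the nucleus and imported, and a small set comes from mitochondrial DNA and was not analysed here. Cartilage cells live at low oxygen and draw most of their ATP from glycolysis, and inflammatory cytokines are known to affect their mitochondria.

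Library totals were 16615824 to 16878164 reads in IL and 17529844 to 17735860 in ILN. Counts were normalised with TMM, the quasi-likelihood test of edgeR was used, and p-values were adjusted by Benjamini-Hochberg over all 11983 genes that passed the filter on low counts. Log2 fold changes are of ILN over IL, and levels are the authors' TPM values (transcript abundance scaled for length), which sum to the same total in each library. The spread between replicates was small, and 40.2% of all tested genes were higher and 39.8% lower at an adjusted p below 0.05. With a log2 fold change above 1 in size as a second cutoff, 6.48% were higher and 10.1% were lower. Of 10 cartilage markers 6 were listed, and their summed level was 11.5 to 12.2 TPM in IL and 14.8 to 15.0 TPM in ILN. The tested cartilage markers split: Sox9 rose from 6.44 to 11.4 TPM and Col11a2 fell from 5.01 to 3.43 TPM on average. Col2a1, the main collagen of cartilage, was at 0.217 TPM in IL and 0.04 TPM in ILN, a fall, and Matn1 was listed at 0 in all 6 libraries. Fibroblast markers (6 of 6 listed, mainly Col1a2) summed to 1101 to 1148 TPM in IL and 336 to 350 TPM in ILN, with Thy1 at 0, while Pdgfra of the same list rose from 2.36 to 8.69 TPM on average. Of 4 macrophage markers 3 were listed, and their sum was 10.8 to 14.1 TPM in IL and 124 to 135 TPM in ILN. That sum was nearly all Cd68, a lysosomal membrane protein, while Ptprc was at 0 and Csf1r was at 0.217 TPM in IL and 0.137 TPM in ILN. Endothelial, muscle and epithelial markers did not exceed a sum of 0.44 TPM in any library, and the adipocyte markers summed to 2.87 to 5.09 TPM in IL and 0.36 to 0.74 TPM in ILN. The part of these shifts in the results below was not tested. In bulk RNA, fewer cells of a type and less RNA per cell cannot be told apart.

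Subunit genes were mostly lower with NP-G2-044, by small amounts. Of the 83 members, 77 passed the filter, and 11 of them rose, 47 fell and 19 did not pass the test. Their median log2 fold change was -0.17, against 0.00 over all tested genes, and 59 of the 77 had a negative value. The rises made up 14.3% of the tested members, below the 40.2% of all genes, and the falls 61.0%, above the 39.8% of all genes. In 64 of the 77 the log2 fold change was smaller than 0.5. Past both cutoffs there was 1 member in each direction, against 6.48% (higher) and 10.1% (lower) of all genes. These were Uqcrq, higher, and Uqcrh, lower, both of complex III. The 3 ILN libraries lay above the 3 IL libraries in TPM without overlap for 11 tested members and below them for 51, against 38.0% and 41.4% of all tested genes. Both called and without overlap were 10 rises and 46 falls. These transcripts were abundant and short: 60 of the 77 stood among the most abundant 10% of tested genes (at least 123 TPM), with a median of 258 TPM against 22.6 TPM over all tested genes. The median length implied by the authors' counts and FPKM values (reads scaled for length and library size) was 420 bases for the members and 2711 bases for all tested genes. Across the 77 members, Spearman's rho between the log2 fold change and the mean level was -0.20, and between the log2 fold change and the implied length it was 0.21. These points share the same 6 libraries, and both values are descriptions.

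**Figure D1:**
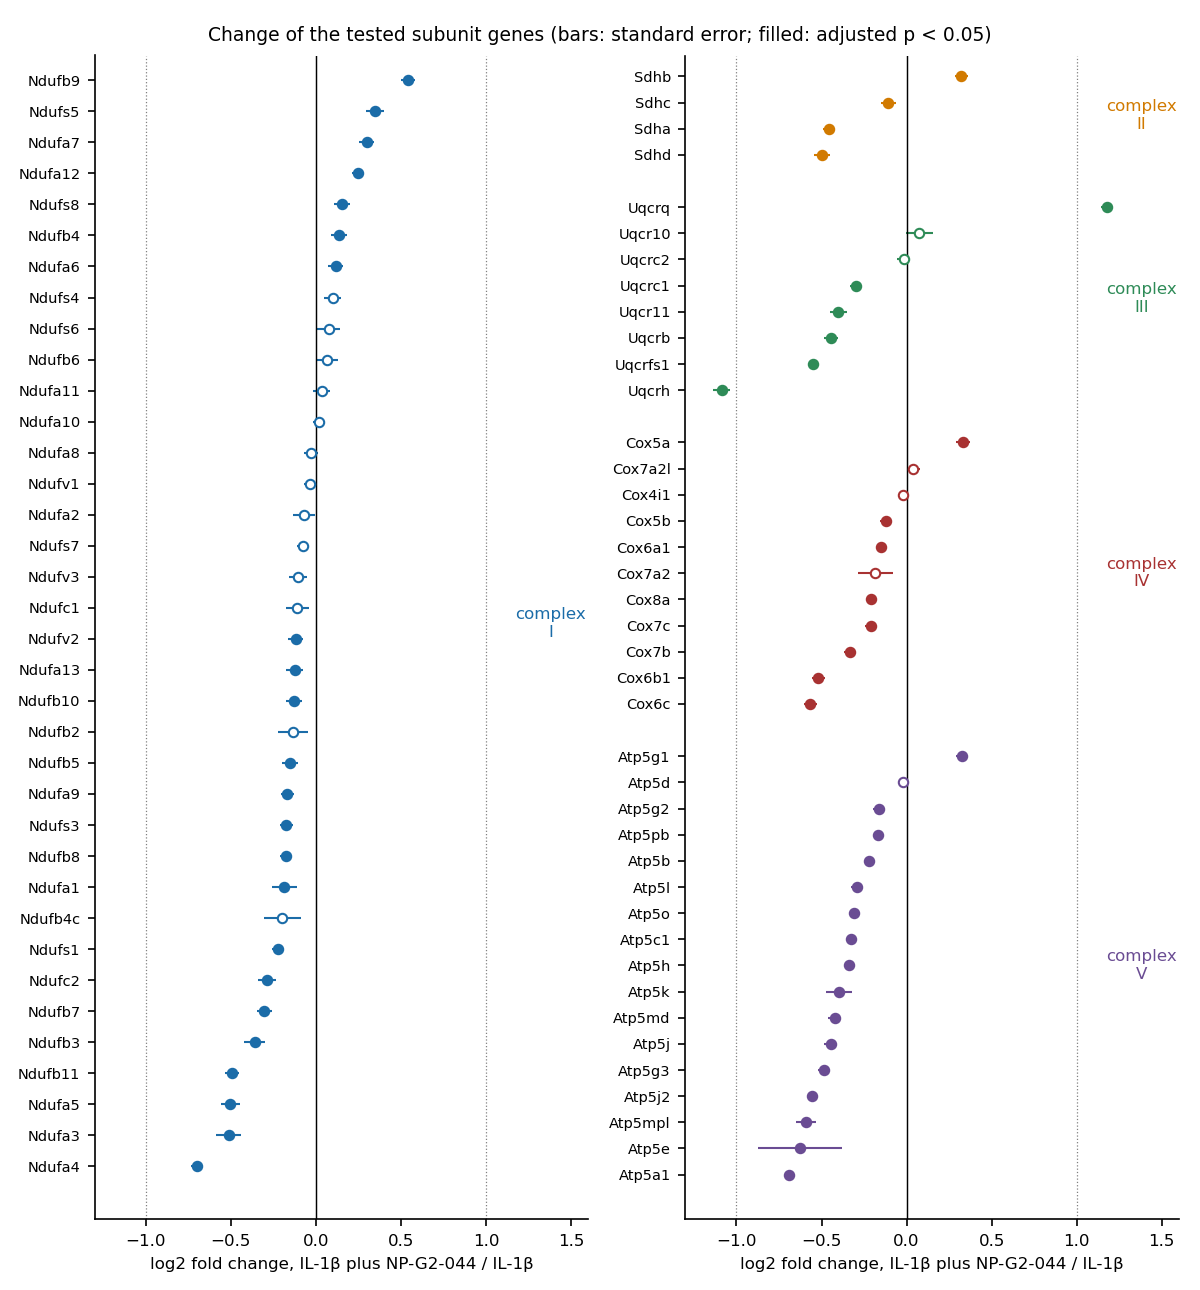
Log2 fold change of ILN over IL (horizontal axis) for 76 of the 77 tested subunit genes, grouped by complex, with bars for the standard error and filled points for an adjusted p below 0.05. Most points lie to the left of 0, Uqcrq and Uqcrh alone lie beyond the dotted lines at 1 and -1, and Atp5e, with 81 and 55 reads, has the longest bar.

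**Figure D2:**
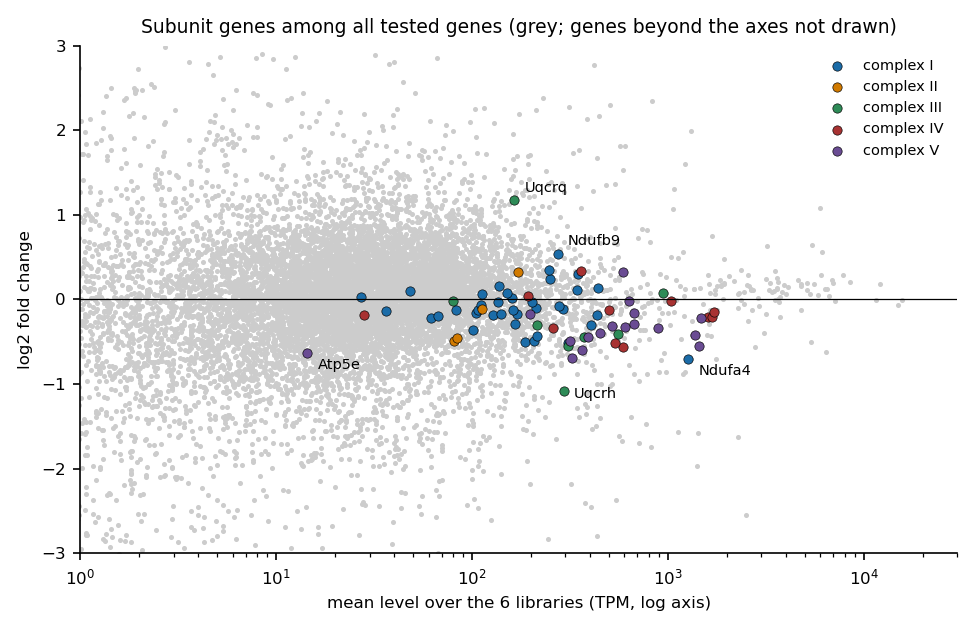
Mean level over the 6 libraries (horizontal log axis, TPM) against log2 fold change (vertical axis) for all tested genes in grey and the 77 subunit genes in colour by complex. The subunit genes other than Uqcrq and Uqcrh lie between -0.70 and 0.54, mostly at high levels, and 1094 tested genes beyond the axes are not drawn.

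Added up over all members, the level was 33404, 33217 and 33950 TPM in the IL libraries and 28317, 28307 and 28556 TPM in the ILN libraries. The groups did not overlap, and the mean was 15.3% lower in ILN. Complex V, the largest sum, went from 12182 ± 174 to 9691 ± 37.3 TPM (SD, n = 3 per group), 20.4% lower. Complex III was 15.3% lower (3177 ± 38.2 to 2692 ± 99.4 TPM), complex IV 12.7% lower (9080 ± 116 to 7927 ± 121 TPM) and complex I 11.2% lower (8618 ± 136 to 7650 ± 14.5 TPM). Complex II, the smallest, was 7.03% lower (466 ± 6.39 to 433 ± 4.37 TPM). In each complex the 3 ILN sums lay below the 3 IL sums. An exact permutation test of 3 libraries against 3 cannot go below a p of 0.1, so no p is given for sums. Summed CPM values (counts scaled by library size), which weigh long transcripts more, were lower by 17.7% for complex V, 12.6% for complex II, 9.94% for complex IV, 8.98% for complex III and 8.84% for complex I, so that the order of the complexes after complex V depended on the scale.

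**Figure D3:**
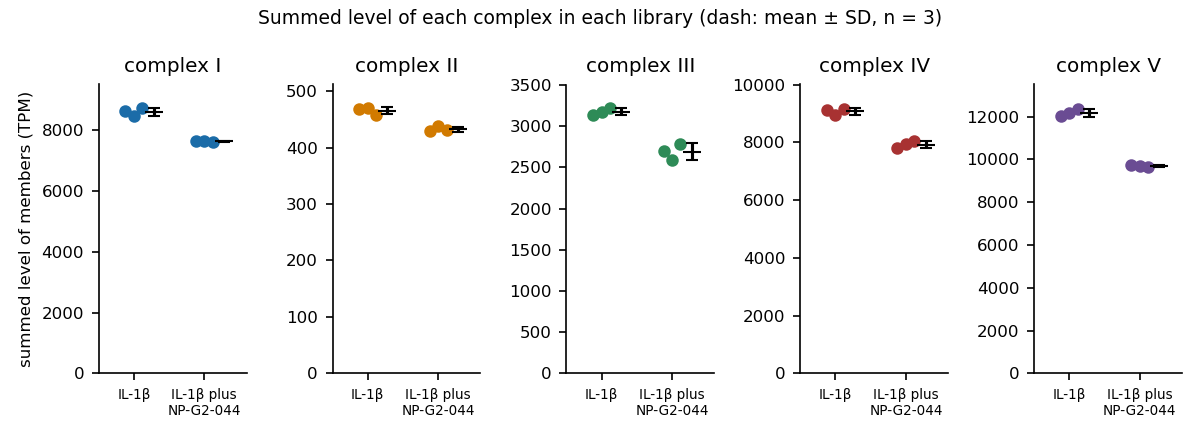
Summed level of the member genes of each complex (vertical axis, TPM, from 0) in each IL-1β library and each IL-1β plus NP-G2-044 library (points), with the mean ± SD of 3 libraries beside them. The ILN points lie below the IL points in every complex, with the widest gap in complex V (12182 against 9691 TPM on average).

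Complex I is the proton-pumping NADH dehydrogenase, with a core conserved from bacteria and a shell of accessory subunits. Of its 37 tested members, 7 rose, 17 fell and 13 did not pass the test, with a median log2 fold change of -0.12. The falls were 45.9% of the tested members, near the 39.8% of all genes, and the rises 18.9%, against 40.2%. Among the core subunits, which carry the flavin and the iron-sulfur clusters, 4 of 7 fell (57.1%, against 39.8%), Ndufs1 among them by 0.22. Ndufs8 alone rose (14.3%, against 40.2%), by 0.15, and its groups overlapped in TPM. Ndufs7 and Ndufv1, also of the core, had log2 fold changes of -0.08 and -0.04 and did not pass the test. Without ILN replicate 1 the median of complex I was -0.07, and with upper-quartile scaling the split was 4 higher and 23 lower.

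The accessory subunits of complex I held changes in both directions, 6 higher and 12 lower of 29 tested. The falls were 41.4% of them, near the 39.8% of all genes, and the rises 20.7%, against 40.2%. Ndufa3 and Ndufa5 fell most, with log2 fold changes of -0.51 (SE 0.074) and -0.50 (SE 0.056). Ndufa3 was at 359, 357 and 378 TPM in IL and 255, 265 and 251 TPM in ILN. Ndufa5 was at 215, 217 and 221 TPM in IL and 162, 158 and 144 TPM in ILN. For both genes every ILN library lay below every IL library. The other 10 falls among the accessory subunits ran from -0.50 (Ndufb11) to -0.13 (Ndufa13, whose groups overlapped in TPM). Ndufb9, a small protein of the membrane arm, went the other way, from 233, 225 and 215 TPM to 327, 323 and 319 TPM, a log2 fold change of 0.54 (SE 0.041, edgeR adjusted p = 2.21e-17). Its exons share 201 bases with Gm49356 on the same strand, a gene that is not listed. Ndufs5 rose from 215, 219 and 220 TPM to 275, 298 and 258 TPM (log2 fold change 0.35, SE 0.054). Ndufa7 rose from 315, 316 and 310 TPM to 397, 377 and 378 TPM (log2 fold change 0.30, SE 0.044). The other rises, of Ndufa12, Ndufb4 and Ndufa6, were of 0.12 to 0.25 on the log2 scale. So within 1 complex, whose subunits assemble in fixed proportion, Ndufb9 was at 1.44 times and Ndufa5 at 0.710 of its mean TPM in IL. Ndufb4c is annotated in GENCODE as a processed pseudogene, and its transcript was identical to that of Ndufb4 over 390 bases, so that reads could be split between them and both values are uncertain. Ndufb4 rose by 0.13, Ndufb4c had a log2 fold change of -0.20 that did not pass the test, and Ndufb4b, whose likeness to them was not measured, had 5 reads in IL and 2 in ILN.

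For 13 complex I members the test was not passed. Ndufa10 was at 159, 165 and 158 TPM in IL and at 159, 165 and 156 TPM in ILN, and Ndufa11 averaged 27.0 TPM in both groups, the lowest level of a tested complex I member. The log2 fold changes of Ndufa8, Ndufa2, Ndufb6 and Ndufs6 lay between -0.07 and 0.07. Those of Ndufv3 (-0.11, adjusted p = 0.0512), Ndufs7 (-0.08, adjusted p = 0.0580) and Ndufs4 (0.10, adjusted p = 0.0667) lay near the threshold in edgeR's test. Ndufc1 and Ndufb2 had values of -0.11 and -0.13 with standard errors of 0.067 and 0.088.

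Ndufa4, named for complex I and now regarded as a subunit of complex IV, had the highest level of the Nduf genes and fell most among them. It was at 1590, 1480 and 1666 TPM in IL and at 980, 992 and 937 TPM in ILN, a log2 fold change of -0.70 (SE 0.035, edgeR adjusted p = 3.08e-21). The lowest IL library stood well above the highest ILN library. Counted with complex IV, it would leave complex I with 7 higher and 16 lower of 36 and bring complex IV to 1 higher and 8 lower of 12. Ndufa4l2, its paralogue, known to be induced by hypoxia, had 1 read in IL and 14 in ILN. The ratio of reads per library total was 13.3, with an exact 95% interval of 2.02 to 562 that covers counting error only. Its exons overlap those of Shmt2 on the opposite strand by 32 bases, and Shmt2 rose by 1.35 on the log2 scale. Exons of 27 members, Ndufa4l2 included, overlap a gene on the opposite strand, and no source used here says whether reads were counted by strand.

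Complex II, succinate dehydrogenase, joins the tricarboxylic acid (TCA) cycle to ubiquinone and has only nuclear subunits, and its 4 genes moved apart. Sdha, the flavoprotein that oxidises succinate, fell from 95.7, 101 and 98.0 TPM to 69.0, 71.6 and 69.0 TPM (log2 fold change -0.46, SE 0.033, edgeR adjusted p = 2.10e-18). Sdhb, its iron-sulfur partner in the catalytic dimer, rose from 154, 156 and 153 TPM to 184, 198 and 186 TPM (log2 fold change 0.32, SE 0.038, edgeR adjusted p = 7.22e-11). Neither gene had overlapping groups. Of the membrane anchors, Sdhd fell from 97.5, 94.1 and 94.2 TPM to 70.9, 62.3 and 66.0 TPM (log2 fold change -0.49, SE 0.047). Sdhc, the other anchor, had a log2 fold change of -0.11 (SE 0.042, edgeR adjusted p = 0.0186) with means of 118 ± 4.51 and 107 ± 2.40 TPM (SD, n = 3 per group). The call of Sdhc was lost in DESeq2 (-0.11, adjusted p = 0.0904) and without IL replicate 1 (-0.08), ILN replicate 1 (-0.09) or ILN replicate 2 (-0.10). Sdhb was the highest of the 4 genes in both groups, at 1.57 times the level of Sdha in IL and 2.71 times in ILN.

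Complex III, the cytochrome bc1 complex, hands electrons from ubiquinol to cytochrome c and held both members past the fold cutoff. Uqcrh, the acidic hinge protein that lies beside cytochrome c1, was at 374, 388 and 439 TPM in IL and at 199, 180 and 184 TPM in ILN. Its mean TPM in ILN was 0.469 of that in IL, and its log2 fold change was -1.09 (SE 0.051, edgeR adjusted p = 5.20e-24). With offsets for transcript length it was -0.996, just inside the cutoff. Uqcrq, a small membrane subunit, was at 103, 100 and 103 TPM in IL and at 221, 228 and 229 TPM in ILN, with a log2 fold change of 1.18 (SE 0.034, edgeR adjusted p = 2.87e-35). In TPM, Uqcrq was below Uqcrh in every IL library and above it in every ILN library. This switch rests on the scaling for length. In reads Uqcrq was above Uqcrh in IL as well (1374, 1307 and 1364 against 1105, 1114 and 1268). In RefSeq (GRCm38.p6) Uqcrh spans chr4:116066965-116075070 and Uqcrq chr11:53427922-53430831. Among the catalytic and core subunits, the Rieske iron-sulfur protein Uqcrfs1 fell from 377, 358 and 369 TPM to 250, 243 and 248 TPM (log2 fold change -0.55, SE 0.031). Uqcrc1, a core protein, fell by 0.30, whereas its partner Uqcrc2 averaged 81.2 ± 3.78 TPM in IL and 78.6 ± 1.76 TPM in ILN (SD, n = 3 per group), a log2 fold change of -0.02. Of the other small subunits, Uqcrb fell by 0.44 and Uqcr11 by 0.40. Uqcr10, the most abundant, was at 892, 912 and 956 TPM in IL and at 945, 867 and 1085 TPM in ILN. Its groups overlapped, its log2 fold change of 0.08 (SE 0.082) did not pass the test, and without ILN replicate 2 it was 0.15 (edgeR adjusted p = 0.00334).

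**Figure D4:**
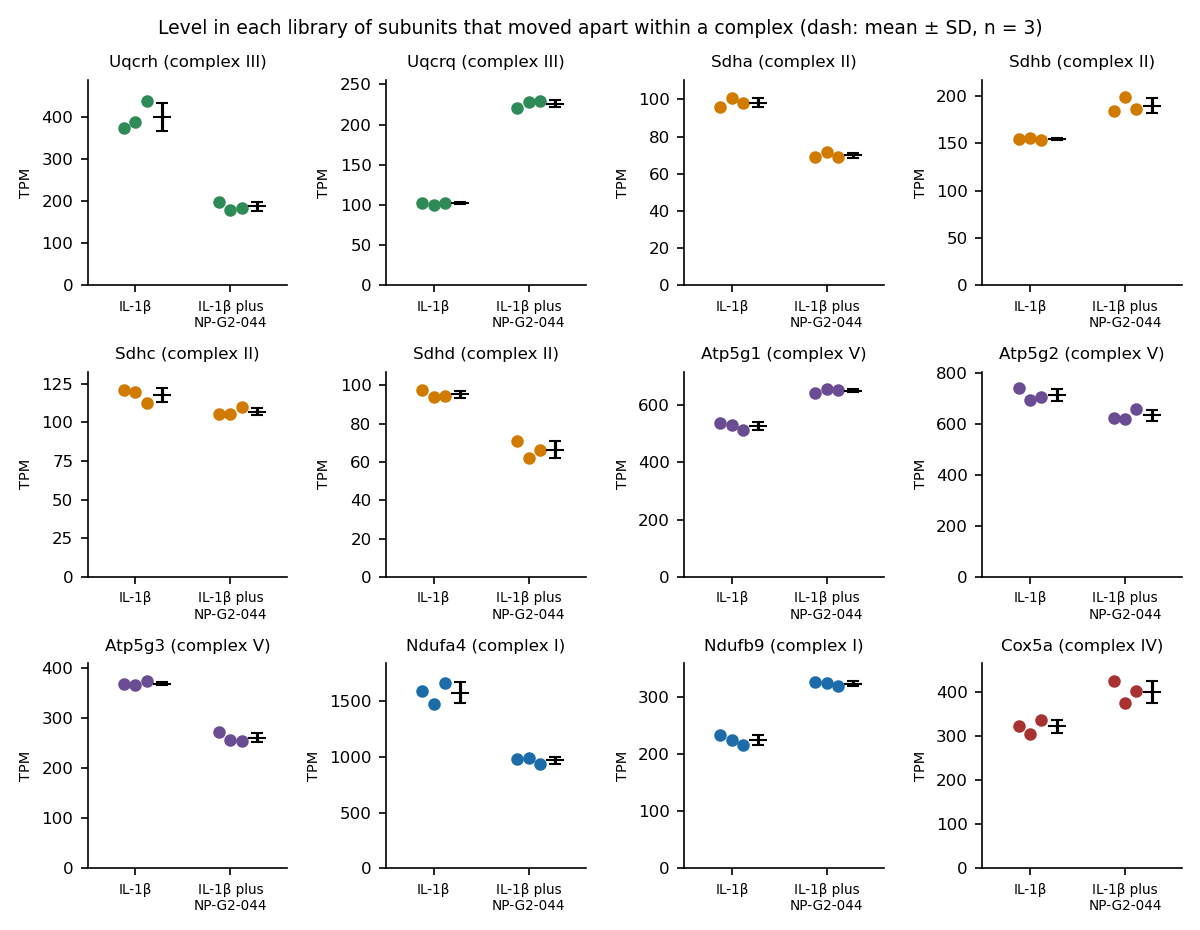
Level (vertical axes, TPM, each from 0) of 12 subunit genes that moved apart within their complex, in each IL-1β library and each IL-1β plus NP-G2-044 library (points), with the mean ± SD of 3 libraries beside them. Uqcrh falls from 400 to 188 TPM on average while Uqcrq rises from 102 to 226 TPM. Sdhb and Atp5g1 rise beside falling partners, and Ndufb9 and Cox5a rise as well.

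Promoters of these genes are known for binding sites of nuclear respiratory factor 1 (NRF1), of GABP and other ETS factors, and of YY1. For 67 of the 83 members RefSeq promoters (GRCm38.p6, 250 bases before to 50 bases after a start site) were matched by Entrez gene number. They were searched on both strands for CGCANGCGC (NRF1), CCGGAAG (ETS) and AAGATGGCG (YY1). No matches of different motifs overlapped among the 64 found. A gene was counted where any of its promoters held a match. The NRF1 letters stood in the promoters of 35.8% of the members, against 15.97% of 9635 tested genes and 7.12% of all 27025 genes with a promoter. The ETS letters were found for 25.4% of the members, 20.7% of the tested genes and 9.93% of all genes with a promoter. For the YY1 letters these shares were 10.4%, 3.66% and 1.64%. Of 40 lower members 37.5% held the NRF1 letters, and of 9 higher members 44.4%. By complex, their share was 27.3% of 33 in I, 66.7% of 3 in II, 60.0% of 5 in III, 9.09% of 11 in IV and 60.0% of 15 in V. A match is a description of the sequence and does not show that a factor bound. The 100 bases before the start site are printed, 5′ to 3′ on the gene's strand, for Uqcrh, which fell most, for Uqcr10 of the same complex, which did not pass the test, and for Ndufs5 of complex I, which rose. They were chosen after the values were seen, and capitals mark matches in the printed stretch.
Uqcrh: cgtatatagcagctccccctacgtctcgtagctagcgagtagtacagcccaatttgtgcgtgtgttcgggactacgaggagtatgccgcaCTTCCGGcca
Uqcr10: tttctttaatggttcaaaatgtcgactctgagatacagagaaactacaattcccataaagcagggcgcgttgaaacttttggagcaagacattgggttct
Ndufs5: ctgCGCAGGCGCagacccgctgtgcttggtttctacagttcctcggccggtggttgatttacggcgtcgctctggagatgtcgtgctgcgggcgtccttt
These lie at chr4:116075071-116075170 (Uqcrh), chr11:4704345-4704444 (Uqcr10) and chr4:123718187-123718286 (Ndufs5) of GRCm38.p6, all on the minus strand. Uqcrh holds the ETS letters on the reverse strand, near the start site, and no NRF1 or YY1 match. Ndufs5 holds 1 NRF1 match, far from the start site in this stretch. Uqcr10 has 1 NRF1 match that lies in the window outside the printed stretch. Promoters of Uqcrq, Ndufb9 and Cox6c were not matched.

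Complex IV, cytochrome c oxidase, takes its catalytic core from mitochondrial DNA, and the nuclear genes code for the subunits around it. Of 11 tested members, 1 rose, 7 fell (63.6%, against 39.8% of all genes) and 3 did not pass the test, with a median log2 fold change of -0.18. With length offsets the median was -0.077, and against a fold of 1.2 there were 3 lower members. Cox6c fell from 705, 700 and 719 TPM to 477, 487 and 467 TPM (log2 fold change -0.57, SE 0.037). Cox6b1, which faces cytochrome c, fell from 623, 628 and 639 TPM to 449, 424 and 446 TPM (log2 fold change -0.52, SE 0.041). These were the largest falls, and Cox7b followed with -0.33 (SE 0.036). The most abundant members, Cox6a1, Cox8a and Cox7c, stood at 1805 ± 24.3, 1805 ± 55.0 and 1719 ± 32.9 TPM in IL (SD, n = 3) and fell by 0.15, 0.21 and 0.21, so that a small fold change weighed heavily in the sum. Cox5a, a subunit on the matrix side, was the exception, rising from 324, 306 and 337 TPM to 426, 375 and 402 TPM (log2 fold change 0.33, SE 0.041). Cox5b, which binds zinc, fell by 0.12.

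Cox4i1, the largest nuclear subunit, was at 1072, 1050 and 1046 TPM in IL and at 1017, 1039 and 1025 TPM in ILN. Its TPM groups did not overlap, but its log2 fold change of -0.02 (SE 0.029) did not pass the test. Its exons overlap those of Emc8 on the opposite strand by 154 bases, and Emc8 fell by 1.19. Cox7a2l, whose product joins complexes III and IV into supercomplexes rather than belonging to complex IV itself, had a log2 fold change of 0.04 (SE 0.036). Cox7a2, at 29.9 ± 2.04 TPM in IL and 26.1 ± 2.72 TPM in ILN (SD, n = 3 per group), had one of -0.18 (SE 0.102) that did not pass the test. The 4 members restricted to certain tissues had almost no reads. Cox4i2, known from lung and from hypoxic cells, had 1 read in each group, and Cox7a1, of heart and muscle, had 1 in IL and 2 in ILN. Cox6b2, of testis, had 0 reads in all 6 libraries. Cox6a2, the heart and muscle form, had 1 read in IL and 20 in ILN, a ratio of reads per library total of 19.0 with an exact 95% interval of 3.04 to 788. The common isoforms Cox4i1, Cox6a1, Cox6b1 and Cox7a2 thus supplied nearly all of the reads of their pairs. Without the filter on low counts, edgeR called Cox6a2 and Ndufa4l2 higher, which made 3 members past both cutoffs in that direction, as it did in DESeq2.

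Complex V had the most uniform change, with 15 of 17 tested members lower (88.2%, against 39.8% of all genes), 1 higher and 1 that did not pass the test, and a median log2 fold change of -0.34. In the catalytic head and central stalk, Atp5a1, the alpha subunit, fell from 409, 407 and 397 TPM to 246, 251 and 237 TPM (log2 fold change -0.69, SE 0.028, edgeR adjusted p = 1.37e-28). Atp5b, the beta subunit that carries the catalytic sites, fell from 1589, 1616 and 1636 TPM to 1356, 1377 and 1334 TPM (log2 fold change -0.22, SE 0.026). Alpha and beta subunits alternate in equal number in the head, yet the messenger of the beta subunit stood at 3.99 times that of the alpha subunit in IL and 5.54 times in ILN. Of the stalk, Atp5c1 (gamma) fell by 0.33, and Atp5d (delta) had a log2 fold change of -0.02 (SE 0.029) that did not pass the test. Atp5e (epsilon) had 81 reads in IL and 55 in ILN and a log2 fold change of -0.63 (SE 0.248, edgeR adjusted p = 0.0190). Its call was lost in DESeq2 (adjusted p = 0.139), with length offsets (-0.47), against a fold of 1.2 (adjusted p = 0.0554) and without IL replicate 2 (-0.51) or ILN replicate 1 (-0.58).

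The ring that turns in the membrane is built from 1 protein, subunit c, which 3 genes encode with the same mature product and different import sequences. Atp5g1 rose from 537, 530 and 512 TPM to 644, 656 and 652 TPM (log2 fold change 0.32, SE 0.031, edgeR adjusted p = 8.09e-14). Atp5g2 fell from 740, 694 and 706 TPM to 625, 618 and 660 TPM (log2 fold change -0.16, SE 0.034). Atp5g3 fell from 368, 366 and 373 TPM to 272, 256 and 255 TPM (log2 fold change -0.49, SE 0.037). In each of the 3 genes the groups did not overlap. In IL the order was Atp5g2, Atp5g1 and Atp5g3, and in ILN Atp5g1 (651 ± 6.41 TPM) and Atp5g2 (634 ± 22.2 TPM) lay within the spread of the latter. The 3 genes together came to 1609 ± 31.1 TPM in IL and 1546 ± 18.2 TPM in ILN (SD, n = 3 per group), 3.91% lower, while the other 14 complex V members together were 23.0% lower.

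All 4 genes of the peripheral stalk, which holds the head still, fell: Atp5j by 0.45, Atp5h by 0.34, Atp5o by 0.31 and Atp5pb by 0.17. All 5 small membrane subunits, which include those that join ATP synthase into dimers, fell as well. Atp5mpl fell from 443, 455 and 419 TPM to 308, 278 and 289 TPM (log2 fold change -0.59, SE 0.060). Atp5j2, the f subunit, was named after its values were seen: it went from 1695, 1735 and 1747 TPM to 1187, 1187 and 1149 TPM (log2 fold change -0.55, SE 0.030). Atp5md, Atp5k and Atp5l fell by 0.42, 0.40 and 0.29. For 9 tested members in this complex near-identical pseudogene transcripts are annotated, as for 22 members in all, and reads of such genes may have been divided differently.

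Genes around the chain were compared from lists chosen by function, with earlier results of these data known. The 4 respiratory genes whose symbols fell outside the rule all rose: Cycs, cytochrome c itself, from 67.3 ± 2.84 to 101 ± 0.58 TPM (SD, n = 3 per group; log2 fold change 0.61, SE 0.033), Dmac2l by 0.39, Cyc1, the cytochrome c1 of complex III, by 0.23, and Ndufab1, the acyl carrier protein of complex I, by 0.22. Of the factors that assemble the complexes, 57 were tested, and 30 rose and 7 fell, with a median log2 fold change of 0.17. The rises were 52.6% of those tested, against 40.2% of all genes, and the falls 12.3%, against 39.8%. By complex, 10 rose and 2 fell of 18 for complex I, 2 and 1 of 4 for complex II, 3 and 1 of 6 for complex III, 14 and 2 of 24 for complex IV, and 1 and 1 of 5 for complex V. Among these rises, Dmac1 (complex I) and Cox16 (complex IV) had groups that overlapped in TPM. Dropping any 1 library gave 7 to 9 rises for complex I and 13 to 15 for complex IV. Against a fold of 1.2 (edgeR), the rises left were 6 for complex I, 0 for complex III and 9 for complex IV. In that test the falls left were 1 for complex I and 0 for complex V. The largest changes for complex I were those of Tmem126a (1.10, SE 0.051) and Ndufaf4 (0.80, SE 0.052). For complex II they were those of Sdhaf3 (0.87, SE 0.116) and Sdhaf1 (0.69, SE 0.091). For complex III they were those of Uqcc3 (-0.40) and Uqcc1 (0.28), and for complex V those of Atpaf2 (0.39) and Tmem242 (-0.26). For complex IV they were falls of 0.91 in Cox20, which handles a core subunit, and of 0.82 in Cmc2, against a majority that rose. The difference between the assembly factors and the subunits was not tested.

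**Figure D5:**
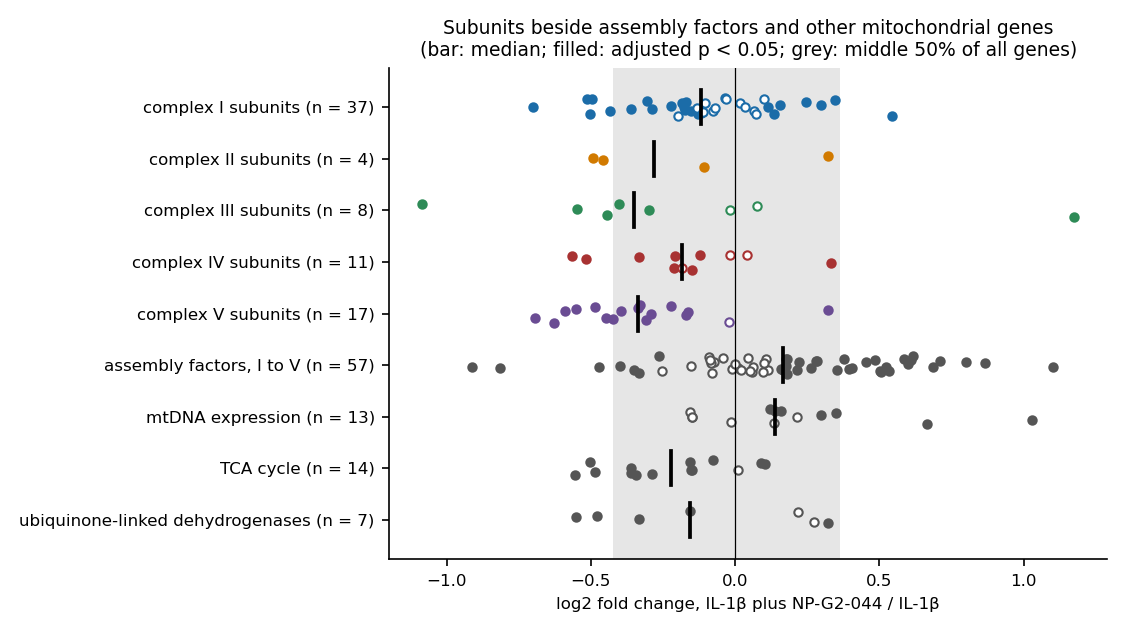
Log2 fold change of ILN over IL (horizontal axis) for the subunits of each complex and for genes of assembly, mitochondrial DNA expression, the TCA cycle and other ubiquinone-linked dehydrogenases (1 point per tested gene, filled for an adjusted p below 0.05, black bar for the median). The subunit and TCA medians lie left of 0 and those of the assembly factors (0.17) and of mitochondrial DNA expression (0.14) right of it, all inside the grey band that holds the middle 50% of all tested genes.

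The TCA cycle, which supplies NADH and succinate, had 2 genes higher and 11 lower of 14 tested (78.6% lower, against 39.8% of all genes), with a median of -0.22. Against a fold of 1.2 (edgeR), the calls left were 6 falls. Idh2 fell from 247 ± 8.76 to 164 ± 5.60 TPM (SD, n = 3 per group; log2 fold change -0.56, SE 0.033), and Fh1 fell by 0.50. Of 7 other dehydrogenases that feed ubiquinone, 1 rose (14.3%, against 40.2% of all genes) and 4 fell (57.1%, against 39.8%). The largest changes were in the electron transfer flavoprotein pathway (Etfb -0.55, Etfdh -0.48). Among carriers and pores for ADP, ATP and phosphate, 3 rose and 3 fell of 6 (50% each, near the 40.2% and 39.8% of all genes). The ADP/ATP carrier Slc25a4 fell from 697 ± 13.5 to 499 ± 6.99 TPM (SD, n = 3 per group; log2 fold change -0.46), and Vdac3 rose by 0.14. Ucp2, the only uncoupling protein gene tested, fell from 208 ± 6.86 to 83.9 ± 3.42 TPM (SD, n = 3 per group; log2 fold change -1.28, SE 0.037).

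Of 13 genes that copy and transcribe mitochondrial DNA, 7 rose and 1 fell (53.8% higher, against 40.2% of all genes), with a median of 0.14. Against a fold of 1.2 (edgeR), the calls left were 2 rises. Top1mt, the mitochondrial topoisomerase, rose by 1.03 (SE 0.071) and Mterf3 by 0.67 (SE 0.077). Of 10 regulators of nuclear respiratory genes, 3 rose (30.0%, against 40.2% of all genes) and 4 fell (40.0%, near the 39.8% of all genes). Against a fold of 1.2 (edgeR), 2 of the falls were left. The coactivator Ppargc1a had 10 reads in IL and 73 in ILN (log2 fold change 2.75, SE 0.395), and Ppargc1b had 88 and 203 (1.13, SE 0.186). Both stayed below 1 TPM on average in each group. The abundant coactivator Pprc1 rose from 55.8 to 72.3 TPM on average (0.40, SE 0.031). Of the genes of factors tied to the letters searched, Yy1 fell by 0.42, Gabpa (the DNA-binding subunit of GABP) by 0.18 and Nrf1 by 0.17. Of the other GABP subunits, Gabpb2 fell by 0.50, and Gabpb1, at -0.005, did not pass the test. Any part of these regulators in the changes of the subunit genes was not tested. Exons of Gabpa and Atp5j overlap on opposite strands by 397 bases.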

How the data were processed

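RNA of 6 ATDC5 libraries (3 IL, 3 ILN) was sequenced by a service company. The submitters' processing notes name cutadapt, HISAT2 2.0, StringTie and the mm10 build, with no role or order, while the annotation and the handling of strand are named in no source used here. The authors deposited 1 table that holds, per gene and library, an estimated count, a TPM and an FPKM value. The counts are not normalised, and 10.2% to 11.1% of those of a library were not whole. TPM, which the authors made per library, served as the level. The deposited FPKM was not tested itself, but it served to derive the implied lengths on which the length offsets rest.

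Counts were rounded, filtered with filterByExpr (minimum count 10), normalised with TMM and fitted with edgeR 4.0.16 in R 4.3.3 (glmQLFit with robust estimation, glmQLFTest), 3 libraries against 3 with no covariates. P-values were adjusted by Benjamini-Hochberg over 11983 genes. Calls used an adjusted p of 0.05 as threshold, and the second cutoff was a log2 fold change of 1 in size. Standard errors are the fold change over the square root of F. Ratios of few reads have exact binomial intervals (SciPy 1.17.1) for counting error only. The library totals (16615824 to 17735860 reads) limit precision for members with few reads. Implied lengths are counts, scaled by library size, over FPKM. Coordinates and promoters are from RefSeq (GRCm38.p6), exon overlaps from GENCODE vM21, and near-identical copies from blastn 2.17.0 (at least 95% identity over 100 bases). The tests of edgeR, DESeq2 and limma, the test against a fold and the length offsets were tried on simulated counts.

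Members and lists were chosen with earlier results of these data known. Genes named are members past both cutoffs, the 3 largest rises and falls per complex with a mean of at least 10 TPM, the most abundant member per complex, isoform sets, complex II, members untested or not called, and the 2 largest changes of each other list. Alternatives were DESeq2 1.42.0, limma 3.58.1 on log2 TPM, other scalings and filters, length offsets (loess), a test against a fold of 1.2, the replicate number as a block, and each library left out. Columns of the authors' own comparisons were not used. The result of 1 member is not reported here.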

Additional observations from a re-analysis of the deposited data

How the results depend on the processing

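No called result reversed under any alternative run, and some members that did not pass the test, such as Uqcrc2 and Cox4i1, changed sign within 0.1 of 0. Of the calls of single named members under alternatives, 732 were on the same side of the threshold, 32 passed it anew and 15 lost it. A test against a fold of 1.2 left 6 members higher and 25 lower (complex I 2 and 6, complex IV 3 lower), and 25 higher and 17 lower in the other lists together. DESeq2 and edgeR without a filter gave 3 members past both cutoffs in the higher direction (2 higher in complex IV), and length offsets gave 0 in the lower direction, since Uqcrh came to -0.996. Upper-quartile scaling, which moved the median of all genes to -0.05, gave medians of -0.23 (all members), -0.17, -0.34, -0.41, -0.24 and -0.39 (complexes I to V) and 4 higher in complex I. Length offsets, which moved it to 0.07, gave -0.12 (all), -0.074, -0.26, -0.28, -0.077 and -0.26. A filter of at least 10 CPM in 3 libraries gave -0.20 (all), -0.31 (complex II), -0.38 (complex III) and -0.36 (complex V). Limma on log2(TPM + 1) gave -0.31 (complex II) and -0.36 (complex V), and with a pseudocount of 0.1 it gave -0.20 (all), -0.31 and -0.36. Summed CPM gave log2 ratios of -0.20 (all), -0.13, -0.19, -0.14, -0.15 and -0.28 (complexes I to V). With each library left out, medians ran from -0.14 to -0.065 in complex I, -0.30 to -0.27 in complex II and -0.22 to -0.16 in complex IV, and 1 to 2 members were higher in complex III. The causes were not tested, apart from the filters, which change the genes tested. With the replicate number as a block, 11 members were higher and 47 lower, and no call of a named member changed. Deviations of same-numbered libraries correlated at -0.09, -0.02 and 0.03, and those of differently numbered libraries at -0.11 to 0.13. These values cannot settle whether the numbers pair the samples, since deviations from a mean of 3 libraries depend on each other. Few reads limit Atp5e and the 6 members below the filter.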
